A study of Mus musculus with 14 samples.

Results

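The Hox genes are the 39 homeobox transcription factor genes that lie in 4 clusters of the mouse genome, Hoxa, Hoxb, Hoxc and Hoxd. They were taken here by their symbols from the protein-coding genes of the GENCODE M1 annotation, with no filter on expression, and make up 39 of the 37680 genes in the count table. Within a cluster the genes are numbered by paralog group, and members of the same group in different clusters descend from the same ancestral gene. In the embryo, low-numbered groups are switched on toward the head and high-numbered groups toward the tail, so that the hindgut, from which the distal colon forms, is marked by the high-numbered groups. Adult gut epithelium keeps part of this code, and Hox transcripts differ between the proximal and the distal colon. They were therefore read here as a check of whether the libraries sampled the same stretch of colon, and of whether their levels differed with Smad4 loss or with injury.

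Gene-level RNA-seq counts came from the epithelium of the whole colon, released from the mesenchyme with 5 mM EDTA, of adult mice of 8 to 14 wk on a C57/BL6-enriched background. The groups were 4 libraries of WT on water, 4 labelled Smad4 KO on water, 3 of WT and 3 of Smad4 KO after 3 d of 2.5% DSS, a sulfated polysaccharide in the drinking water that injures the colonic mucosa. The Smad4 KO mice carried floxed Smad4 alleles and Villin-CreERT2, a Cre recombinase that is active in the intestinal epithelium after tamoxifen, so Smad4 was deleted in epithelial cells and not in the mesenchyme. The study's schedule shows tamoxifen for the Smad4 KO mice and not for WT, so the drug and the deletion cannot be told apart, and the methods, which place Villin-CreERT2 in floxed mutants as well as in controls, do not spell out the alleles of the WT libraries further. The labels do not say that every replicate is a separate mouse, and p-values measure the spread between these libraries. In a bulk sample, fewer cells of a type and less RNA per cell cannot be told apart.

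Total counts ran from 12882827 to 26087231 per library and mitochondrial genes took 4.05% to 32.8% of them, with the highest shares in WT water 3 (30.6%), WT water 4 (32.8%) and Smad4 KO water 4 (21.4%). Smad4 itself had 2372 to 3188 normalized counts in WT on water and 3407 to 3649.6 in WT after DSS, against 702 to 936 in 6 of the 7 libraries labelled Smad4 KO. The library labelled Smad4 KO water 1 had 3164, within the WT range, so the main edgeR calls of Hox genes on this group are given with and without it. All 10 epithelial markers were found, with sums from 403982 to 634898 normalized counts. Of the markers of anal squamous epithelium, Krt5 and Trp63 were at 0 in every library, and the sum over the 6 markers ran from 7.16 to 77.1. Fibroblast markers summed to 239.6 to 349 in WT and 396 to 881 in Smad4 KO on water, and to 298 to 397 in WT and 494 to 587 in Smad4 KO after DSS; their part in the Hox values was not tested.

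The 39 genes spanned 4 stretches of the mm9 genome. The 11 Hoxa genes lie at chr6:52105366-52210874, the 10 Hoxb genes at chr11:96055630-96229570, the 9 Hoxc genes at chr15:102751534-102867274 and the 9 Hoxd genes at chr2:74506367-74603200. The counts were made over exons. Several exons are shared, and reads there could be split or lost. Hoxb7 and Hoxb8 overlapped each other in 26.2% and 40.4% of their exon bases. Of the exon bases of Hoxd3 and Hoxd4, 35.8% and 67.4% lay in exons of other genes, as did 53.5% of Hoxa3, 49.4% of Hoxb2, 37.9% of Hoxb3, 38.6% of Hoxa11 and 20.4% of Hoxa7. The values of these 9 genes are uncertain to that extent.

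The colon epithelium transcribed 3 of the 4 clusters. The 14 libraries together held 218126 Hox counts, 75850 from Hoxa, 118965 from Hoxb, 23277 from Hoxd and 34 from Hoxc. Hox genes took 646 to 1014 CPM, that is, counts scaled to the same total, in a library. Of the 39 genes, 27 had at least 10 counts in at least 3 libraries and were tested for differences: all 11 Hoxa genes, 8 of 10 Hoxb genes, 8 of 9 Hoxd genes and none of the 9 Hoxc genes. Hoxb1, Hoxc11, Hoxc12 and Hoxc13 had no count in any library, and Hoxb2, Hoxd1 and the remaining 6 Hoxc genes had at most 11 counts in any library. For a gene at 0, a count of 3 would have corresponded to 0.115 to 0.233 CPM, depending on the library, and this limit covers counting error only. No gene of the Hoxc cluster, which in the body is known for spine, skin and hair, had more than 8 counts in any of the 14 libraries.

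Levels between genes were compared as normalized counts per kilobase of exon. Hoxb13, the only Hoxb gene of a group above 9 and known for its expression in prostate and in the distal gut, was first of the 39 genes in each of the 14 libraries, with a mean of 2465 per kb. Next came Hoxb9 (539.6 per kb), Hoxd13 (490.1), Hoxa13 (442), Hoxb6 (400.2) and Hoxa7 (399.7). With the longest transcript in place of all exon bases as the length, Hoxa7 moved from the 6th to the 2nd place (566 per kb) and Hoxb13 stayed first. The order from the 2nd to the 6th place is not firm, since each of these 5 genes ranked from 2nd to between 5th and 9th in single libraries. The 3 detected members of group 13, Hoxa13, Hoxb13 and Hoxd13, gave 34.1% to 62.9% of all Hox counts in a library, and Hoxb13 alone 23.2% to 46.9%. Toward the other end of the clusters levels differed, with 0.947 per kb for Hoxb2 and 1.27 for Hoxd1, but 51.5 for Hoxa2 and 42.5 for Hoxa3. The latter 2 stood above posterior genes such as Hoxd12 (18.5) and Hoxd11 (14.8).

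**Figure D1:**
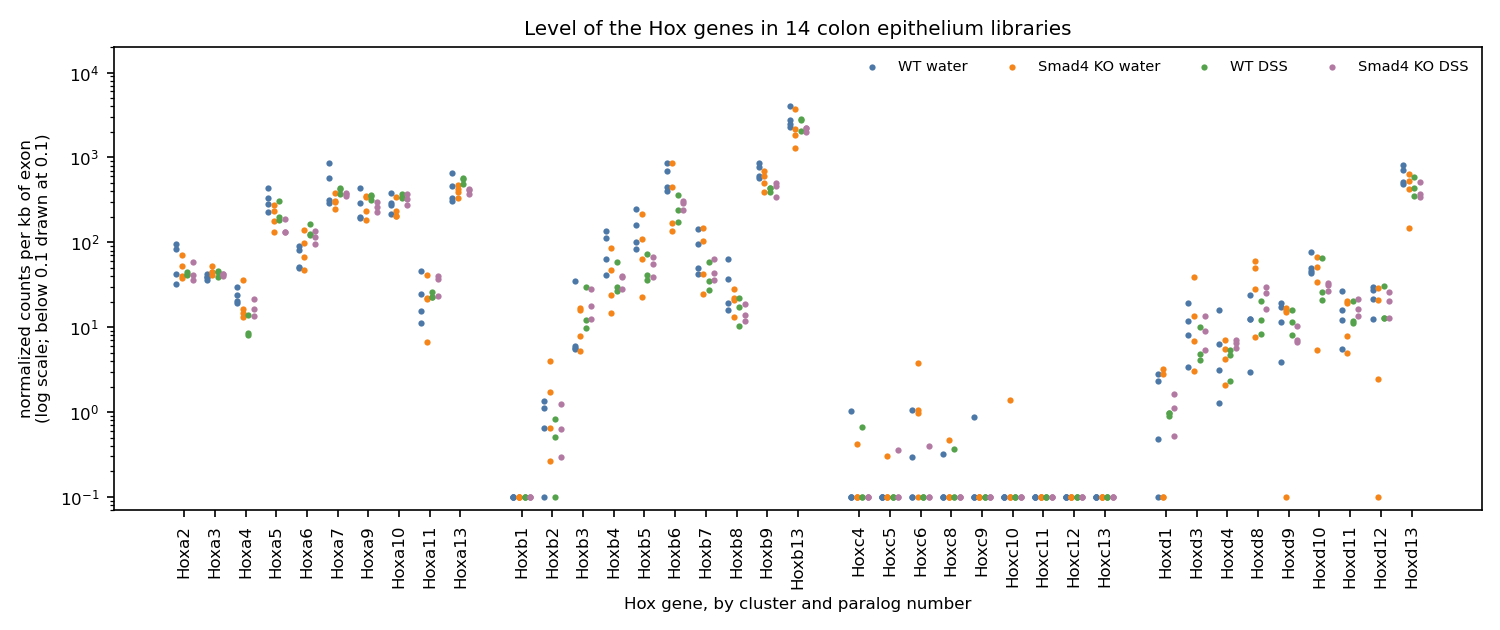
Normalized counts per kilobase of exon (log axis) of Hox genes, ordered by cluster and paralog number, with 1 point per library colored by group and values below 0.1 drawn at 0.1. Hoxb13 is highest in all 14 libraries, the Hoxc genes lie near or at the floor, and the 4 groups overlap for most genes.

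The posterior genes were described first, with the replicates of each group in the order of their numbers. Hoxb13 (ENSMUSG00000049604, chr11:96055630-96058761, + strand) had 5469, 8959, 6073 and 4975 normalized counts in WT on water, 8151, 2836, 4009 and 4787 in Smad4 KO on water, 4470.0, 6175 and 6034 in WT after DSS and 4938, 4345 and 4894 in Smad4 KO after DSS. It averaged 6369 ± 1784 (SD, n = 4) on water and 5559.7 ± 946 (SD, n = 3) after DSS in WT, against 4946 ± 2282 (SD, n = 4) on water and 4726 ± 331 (SD, n = 3) after DSS in Smad4 KO. The 2 highest values were in WT water 2 and the library labelled Smad4 KO water 1, and the lowest value of all was in Smad4 KO water 2. Without the library labelled replicate 1, the Smad4 KO mean on water was 3877 ± 982 (SD, n = 3), and its 3 libraries lay below the 4 WT libraries.

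Hoxd13 (ENSMUSG00000001819, chr2:74506367-74509656, + strand), known for its part in forming digits, genitalia and hindgut, had 1754, 1998, 1216 and 1284 normalized counts in WT on water, 1606, 369.9, 1316 and 1052 in Smad4 KO on water, 878, 1449 and 1079 in WT after DSS and 843, 1268 and 926 in Smad4 KO after DSS. All groups overlapped, and Smad4 KO water 2, at 369.9, stood below the other 13 libraries, whose lowest value was 843. Hoxa13 (ENSMUSG00000038203, chr6:52207693-52210874, - strand), which acts with Hoxd13 in limb and hindgut, had 767, 1127, 1617 and 811 normalized counts in WT on water, 1173, 962, 1036 and 819.7 in Smad4 KO on water, 1185, 1427 and 1365 in WT after DSS and 1022, 1042 and 915 in Smad4 KO after DSS. Its range over the 14 libraries was 2.11-fold, against 3.16-fold for Hoxb13 and 5.40-fold for Hoxd13, and the 3 Smad4 KO libraries after DSS lay below the 3 WT libraries after DSS. Hoxc13, the remaining gene of the group and a regulator of hair keratins, was at 0 throughout.

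Hoxd12 (ENSMUSG00000001823), another limb and hindgut gene, had 71.1, 78.1, 32.6 and 55.7 normalized counts in WT on water, 76.6, 0, 54.3 and 6.42 in Smad4 KO on water, 34.0, 80.5 and 33.7 in WT after DSS and 33.5, 69.0 and 53.8 in Smad4 KO after DSS. It had no count in Smad4 KO water 2, where 3 counts would be 3.58 normalized counts, and 6.42 in Smad4 KO water 4, while the other 12 libraries had at least 32.6. Hoxd11, which shapes the forearm together with Hoxa11, had 86.7, 146, 66.8 and 29.97 normalized counts in WT on water, 104, 43.0, 111 and 26.8 in Smad4 KO on water, 63.5, 111 and 60.7 in WT after DSS and 87.9, 117 and 73.1 in Smad4 KO after DSS. Hoxd10, a gene of lumbar motor neurons and the hindlimb, had 132, 204, 114 and 122 normalized counts in WT on water, 137, 14.3, 178 and 89.9 in Smad4 KO on water, 56.1, 172 and 69.1 in WT after DSS and 70.1, 87.7 and 83.3 in Smad4 KO after DSS. Smad4 KO water 2 was the lowest library for Hoxd10, and Smad4 KO water 4 and WT water 4 were the lowest for Hoxd11. Hoxd9 ran from 0 in Smad4 KO water 2 to 42.6 in WT water 2. Hoxc12 was at 0 in all libraries.

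Since Hoxd9, Hoxd10, Hoxd12 and Hoxd13 all had their lowest value in the same library, the promoters of these 4 genes and of Hoxd11, which lies among them, are shown with that of Hoxb8, the Hox promoter that held both of the motifs searched. The sequences run from 250 bases before to 50 bases after the transcription start, 5′ to 3′ on the strand of the gene, and come from RefSeq on GRCm38.p6, a later build than the mm9 of the counts. Capitals mark matches on either strand to CAATAAA, a site type of caudal and posterior Hox proteins, or to TCGTAAA, a site type of group 13 Hox proteins.
Hoxb8 (chr11:96281655-96281954, + strand): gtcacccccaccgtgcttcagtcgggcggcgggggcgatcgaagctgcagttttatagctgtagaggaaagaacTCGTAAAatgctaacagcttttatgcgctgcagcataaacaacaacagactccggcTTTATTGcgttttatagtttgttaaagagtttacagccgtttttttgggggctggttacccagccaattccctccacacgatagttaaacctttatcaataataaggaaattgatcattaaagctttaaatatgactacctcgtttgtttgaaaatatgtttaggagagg
Hoxd9 (chr2:74697513-74697812, + strand): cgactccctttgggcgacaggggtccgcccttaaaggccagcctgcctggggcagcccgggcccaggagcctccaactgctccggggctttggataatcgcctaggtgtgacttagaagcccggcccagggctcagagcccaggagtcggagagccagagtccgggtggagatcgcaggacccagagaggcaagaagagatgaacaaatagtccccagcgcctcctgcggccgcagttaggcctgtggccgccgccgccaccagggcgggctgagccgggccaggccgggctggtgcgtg
Hoxd10 (chr2:74691641-74691940, + strand): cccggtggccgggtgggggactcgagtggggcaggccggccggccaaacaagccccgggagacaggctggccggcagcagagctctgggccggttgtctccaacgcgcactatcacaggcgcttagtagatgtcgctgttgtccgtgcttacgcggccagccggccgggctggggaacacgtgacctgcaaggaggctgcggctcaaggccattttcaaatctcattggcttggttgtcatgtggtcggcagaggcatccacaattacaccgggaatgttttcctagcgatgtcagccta
Hoxd11 (chr2:74679308-74679607, + strand): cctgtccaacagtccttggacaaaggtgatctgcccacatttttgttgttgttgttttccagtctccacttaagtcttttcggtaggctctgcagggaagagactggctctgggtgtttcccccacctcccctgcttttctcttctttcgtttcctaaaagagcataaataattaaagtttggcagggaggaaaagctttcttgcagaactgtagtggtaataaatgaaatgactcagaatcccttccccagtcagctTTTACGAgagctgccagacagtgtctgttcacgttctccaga
Hoxd12 (chr2:74674763-74675062, + strand): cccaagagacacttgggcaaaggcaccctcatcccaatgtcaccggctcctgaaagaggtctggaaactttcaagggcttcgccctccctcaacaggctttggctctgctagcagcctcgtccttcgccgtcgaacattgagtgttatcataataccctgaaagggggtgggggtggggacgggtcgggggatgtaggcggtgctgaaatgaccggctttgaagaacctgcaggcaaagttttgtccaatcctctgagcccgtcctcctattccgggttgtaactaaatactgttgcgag
Hoxd13 (chr2:74667975-74668274, + strand): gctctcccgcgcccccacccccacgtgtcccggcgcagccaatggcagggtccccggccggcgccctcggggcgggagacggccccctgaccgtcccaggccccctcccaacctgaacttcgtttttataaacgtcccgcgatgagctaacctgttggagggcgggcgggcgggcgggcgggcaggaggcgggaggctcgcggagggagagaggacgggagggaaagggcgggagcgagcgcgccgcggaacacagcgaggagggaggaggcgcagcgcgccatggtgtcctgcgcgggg
CAATAAA was found in 2 of the 24 promoters of 22 Hox genes in the table, and in 4.6% of all 32851 promoters of this length. TCGTAAA was found in 2 of the 24 and in 0.597% of all promoters, and the motifs did not overlap each other in Hoxb8. Hoxd12 and Hoxd13 had an r of 0.85 over the 14 libraries and 0.54 without WT water 2 and Smad4 KO water 2. The promoters of Hoxd9, Hoxd10, Hoxd12 and Hoxd13 held neither motif, nor did the other start of Hoxd11 in the table, at chr2:74682073-74682372, which says only that these letters are not in these windows.

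The middle of the Hoxb cluster varied widely between libraries. Hoxb6 (ENSMUSG00000000690, chr11:96153790-96162883, + strand) had 1790.5, 921, 831 and 1426 normalized counts in WT on water, 284, 933, 348 and 1773 in Smad4 KO on water, 743, 493 and 365 in WT after DSS and 494, 598 and 632 in Smad4 KO after DSS. It was highest in WT water 1 and Smad4 KO water 4 and lowest in the library labelled Smad4 KO water 1, a 6.31-fold range. Hoxb5, a gene of the vagal neural crest, had 448, 232, 284 and 696 normalized counts in WT on water, 64.3, 308, 181 and 601 in Smad4 KO on water, 203, 115 and 100.3 in WT after DSS and 109, 157 and 188 in Smad4 KO after DSS. Hoxb4, known for expanding blood stem cells, had 467, 169.6, 267 and 559 normalized counts in WT on water, 61.7, 197, 99.6 and 351 in Smad4 KO on water, 240.2, 112 and 122 in WT after DSS and 117, 162 and 168 in Smad4 KO after DSS. Both were highest in WT water 4 and lowest in the library labelled Smad4 KO water 1, with ranges of 10.8-fold and 9.06-fold. On water the Smad4 KO values overlapped those of WT for all 3 genes, and the 3 WT libraries after DSS lay below the 4 on water for Hoxb5 and Hoxb6 but not for Hoxb4.

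Hoxb7, whose promoter marks the ureteric bud, had 583, 202, 173 and 394 normalized counts in WT on water, 99.5, 420.0, 173 and 600.4 in Smad4 KO on water, 239, 111 and 142 in WT after DSS and 147, 178 and 259 in Smad4 KO after DSS. Its highest values were again in WT water 1 and Smad4 KO water 4. Hoxb8, a gene of spinal cord and myeloid progenitors, had 168, 41.7, 50.5 and 98.5 normalized counts in WT on water, 35.2, 56.1, 74.9 and 57.8 in Smad4 KO on water, 58.9, 27.4 and 46.4 in WT after DSS and 36.6, 49.3 and 31.5 in Smad4 KO after DSS, with WT water 1 above all other libraries. Hoxb9 (ENSMUSG00000020875, chr11:96132771-96137909, + strand), a thoracic patterning gene, had 1988, 1488, 1565 and 2198 normalized counts in WT on water, 1004, 1555, 1276 and 1775 in Smad4 KO on water, 1124, 1110.4 and 1022 in WT after DSS and 875, 1177 and 1287 in Smad4 KO after DSS. It varied less than Hoxb4 to Hoxb8, 2.51-fold over all libraries, and the 3 WT libraries after DSS, between 1022 and 1124, lay below the 4 on water. Hoxb9 averaged 1809.9 ± 339.9 (SD, n = 4) on water and 1085 ± 55.8 (SD, n = 3) after DSS in WT, against 1403 ± 335 (SD, n = 4) on water and 1113 ± 213 (SD, n = 3) after DSS in Smad4 KO. Hoxb3 ran from 15.9 to 105 normalized counts, with WT water 1 highest here too.

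**Figure D2:**
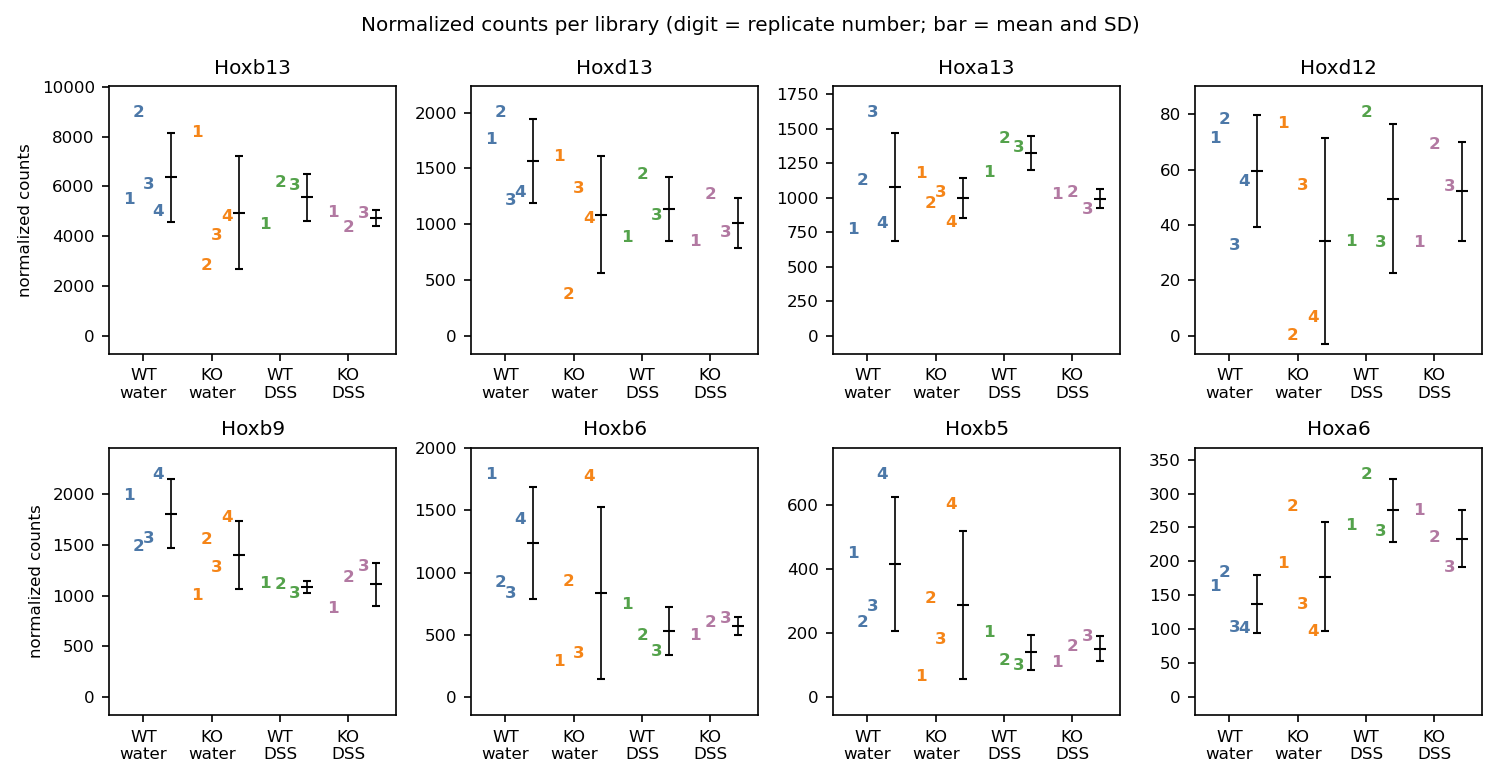
Normalized counts (linear axes from 0) of 8 Hox genes in the 14 libraries; each digit is the replicate number of a library, KO is Smad4 KO, and the bar gives the mean and SD of the group. Smad4 KO water 2 has the lowest Hoxb13, Hoxd13 and Hoxd12, the library labelled Smad4 KO water 1 has the lowest Hoxb6 and Hoxb5, and in WT the DSS and water libraries are apart for Hoxb9, Hoxb6, Hoxb5 and Hoxa6.

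The Hoxa genes are given from the posterior end. Hoxa11, a gene of uterus, kidney and limb, had 41.5, 30.2, 66.8 and 124 normalized counts in WT on water, 58.1, 112, 59.3 and 18.2 in Smad4 KO on water, 69.0, 61.3 and 60.7 in WT after DSS and 98.4, 107 and 63.0 in Smad4 KO after DSS. It shares exon bases with its antisense transcript Hoxa11as, which had 1023 to 5196 counts against 17 to 109 for Hoxa11, and the strand setting of the counting is not given in the sources used here, so their reads cannot be told apart in the shared bases. Hoxa10, also a uterine gene, had 829.7, 1101, 1459 and 1066 normalized counts in WT on water, 1299.9, 901, 786 and 782 in Smad4 KO on water, 1282, 1439.7 and 1321 in WT after DSS and 1419, 1228 and 1047 in Smad4 KO after DSS. Hoxa9, known from myeloid leukemia, had 682, 1019, 1521 and 702 normalized counts in WT on water, 1183, 1227, 819 and 649 in Smad4 KO on water, 1096, 1265 and 1235 in WT after DSS and 1047, 915 and 796 in Smad4 KO after DSS. Within the WT water group, WT water 3 was highest for Hoxa9, Hoxa10 and Hoxa13. The 3 WT libraries after DSS lay within the range of WT on water for Hoxa9 and Hoxa10.

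Hoxa7 (ENSMUSG00000038236, chr6:52164490-52171853, - strand) had 827, 900.2, 2448 and 1665 normalized counts in WT on water, 881, 861, 709.8 and 1109.8 in Smad4 KO on water, 1227, 1265 and 1056 in WT after DSS and 1008, 1088 and 1054 in Smad4 KO after DSS. Its highest values were in WT water 3 and WT water 4, the 2 libraries with the highest mitochondrial shares, whose part in the result was not tested. Hoxa6 (ENSMUSG00000043219, chr6:52155430-52161355, - strand) had 164, 184, 103 and 101 normalized counts in WT on water, 196, 280.4, 136 and 96.3 in Smad4 KO on water, 253, 328 and 244 in WT after DSS and 274, 236 and 191 in Smad4 KO after DSS. In WT its 3 values after DSS lay above the 4 on water, with means of 275 ± 46.5 (SD, n = 3) and 138 ± 42.4 (SD, n = 4). The 3 lowest Hoxa6 values of all were in WT water 3, WT water 4 and Smad4 KO water 4. These are the 3 libraries with the highest mitochondrial shares, against 4.54% to 6.87% in WT after DSS. The part of these shares in the Hoxa6 values was not tested. Hoxa5, which is needed for lung and gut maturation, had 424, 525, 632 and 822 normalized counts in WT on water, 439, 335, 251 and 517 in Smad4 KO on water, 347, 582 and 370.0 in WT after DSS and 353, 248 and 246 in Smad4 KO after DSS. It was highest in WT water 4 and lowest in Smad4 KO DSS 3.

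Hoxa3, a gene of thymus and parathyroid, had the narrowest range of the described genes, 1.48-fold, with 253, 256, 280.4 and 233 normalized counts in WT on water, 294, 346, 271 and 298 in Smad4 KO on water, 254, 295 and 303 in WT after DSS and 264, 281 and 281 in Smad4 KO after DSS. Hoxa2, which patterns the second pharyngeal arch, had 102, 78.1, 202 and 233 normalized counts in WT on water, 92.5, 96.6, 126 and 173 in Smad4 KO on water, 100.3, 108 and 103 in WT after DSS and 87.9, 143 and 101 in Smad4 KO after DSS, with WT water 3 and WT water 4 highest. Hoxa4 ran from 12.9 to 57.3 normalized counts. Of the anterior Hoxd genes, Hoxd8 (ENSMUSG00000027102, chr2:74542672-74545990, + strand) had 65.9, 34.6, 8.15 and 34.3 normalized counts in WT on water, 21.1, 136, 77.4 and 164 in Smad4 KO on water, 55.2, 32.9 and 22.8 in WT after DSS and 45.0, 82.8 and 70.1 in Smad4 KO after DSS. It had the widest range of the described genes present in every library, 20.1-fold, with the lowest value in WT water 3 and the highest in Smad4 KO water 4. Hoxd3 had 110.4, 47.1, 19.6 and 68.5 normalized counts in WT on water, 17.6, 78.7, 39.5 and 227 in Smad4 KO on water, 58.0, 28.4 and 23.6 in WT after DSS and 31.4, 77.9 and 52.8 in Smad4 KO after DSS, and its lowest value was in the library labelled Smad4 KO water 1. Hoxd4 ran from 3.26 to 40.7 normalized counts.

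Across the 14 libraries some of the genes moved in blocks, mostly of neighbours, which were delimited after the values were seen. The correlations that follow are Pearson's r of log2 CPM and describe libraries that share depth and composition within a library. Among Hoxb4 to Hoxb8, the median r of the 10 gene pairs was 0.87 (lowest 0.61), and among Hoxd9 to Hoxd13 it was 0.77 (lowest 0.48). Between these blocks the median r of 25 pairs was -0.23. Without the library labelled Smad4 KO water 1 these medians were 0.84, 0.76 and -0.16, and without Smad4 KO water 2 they were 0.89, 0.52 and -0.21. Without Smad4 KO water 2 the lowest r among Hoxd9 to Hoxd13 was 0.0062, so the tightness of that block leaned on this library. Hoxb9 was not counted in the Hoxb4 to Hoxb8 block but moved with it, with r from 0.71 with Hoxb8 to 0.94 with Hoxb5. Hoxa9, Hoxa10 and Hoxa13 formed another block, with r from 0.74 to 0.89 over 3 pairs. Hoxa11, which lies between Hoxa10 and Hoxa13, was not part of it, with r of 0.30 with Hoxa9, 0.39 with Hoxa10 and 0.10 with Hoxa13. Neighbouring tested genes had a median r of 0.43 (24 pairs), all pairs within a cluster 0.15 (111 pairs) and pairs from different clusters -0.10 (240 pairs). Some pairs from different clusters correlated as well. Hoxb13 had an r of 0.79 with Hoxd13, and 0.45 without WT water 2 and Smad4 KO water 2. In its own cluster its r was -0.18 with Hoxb6 and -0.15 with Hoxb9. The anterior Hoxd genes did not follow the posterior ones. Hoxd3 correlated with Hoxb7 (r = 0.88) and with Hoxd8 (r = 0.82) and not with Hoxd13 (r = -0.18).

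**Figure D3:**
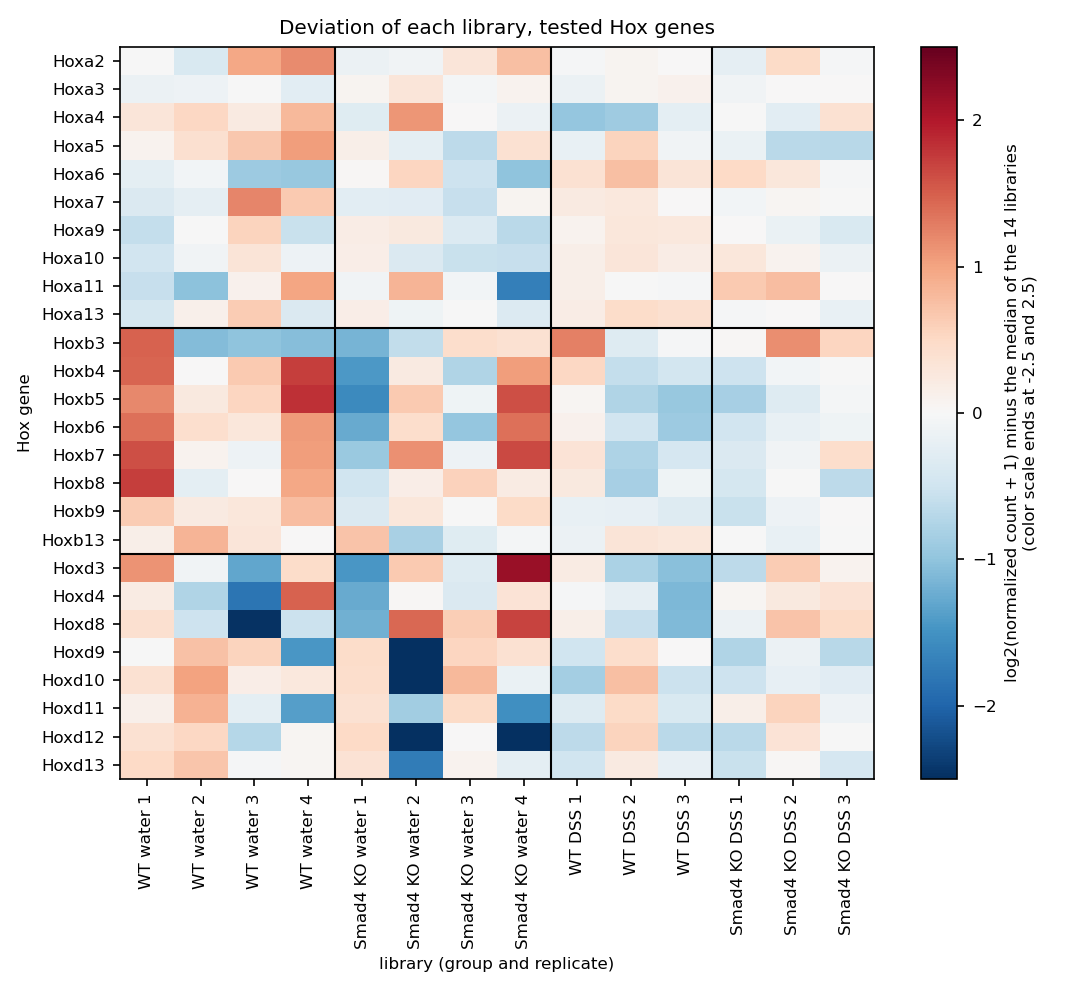
Deviation of each library (columns, by group) from the median of the 14 libraries for tested Hox genes (rows, by cluster), on the log2(normalized count + 1) scale; red is higher, blue is lower. Hoxb4 to Hoxb6 are high together in WT water 1, WT water 4 and Smad4 KO water 4, and Hoxd9 to Hoxd13 are low together in Smad4 KO water 2.

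The balance of the blocks was expressed as the ratio of Hoxd13 to Hoxb6 counts within a library, which does not depend on depth. It was chosen after the values were seen, and its level depends on gene length while its spread between libraries does not. The ratio was 0.98, 2.17, 1.46 and 0.90 in WT on water and 5.66, 0.40, 3.78 and 0.59 in Smad4 KO on water. After DSS it was 1.18, 2.94 and 2.96 in WT and 1.71, 2.12 and 1.47 in Smad4 KO. Smad4 KO on water thus held both the 2 highest and the 2 lowest ratios of all 14 libraries, a 14.3-fold range, against 2.41-fold in WT on water, 2.50-fold in WT after DSS and 1.44-fold in Smad4 KO after DSS. Without the library labelled Smad4 KO water 1 the range of the group was 9.53-fold, and Smad4 KO water 3 was then the highest library. The sum over Hoxb4 to Hoxb8 spanned 544 to 3384 normalized counts in Smad4 KO on water, 877 to 3384 without that library, and 1565 to 3457 in WT on water. The sum over Hoxd9 to Hoxd13 spanned 427 to 1959 in Smad4 KO on water, 427 to 1696 without that library, and 1467 to 2469 in WT on water. The ratio of Hoxd13 to Hoxb13 was steadier, 0.13 to 0.33 over all libraries. With Hoxb13 in place of Hoxd13, the ratio to Hoxb6 spanned 10.6-fold in Smad4 KO on water and 3.19-fold in WT on water. Without the library labelled Smad4 KO water 1 it spanned 4.26-fold in Smad4 KO on water. WT DSS 3 (16.5) and WT DSS 2 (12.5) then stood above Smad4 KO water 3 (11.5), so the wider spread of this group depended on the ratio chosen.

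**Figure D4:**
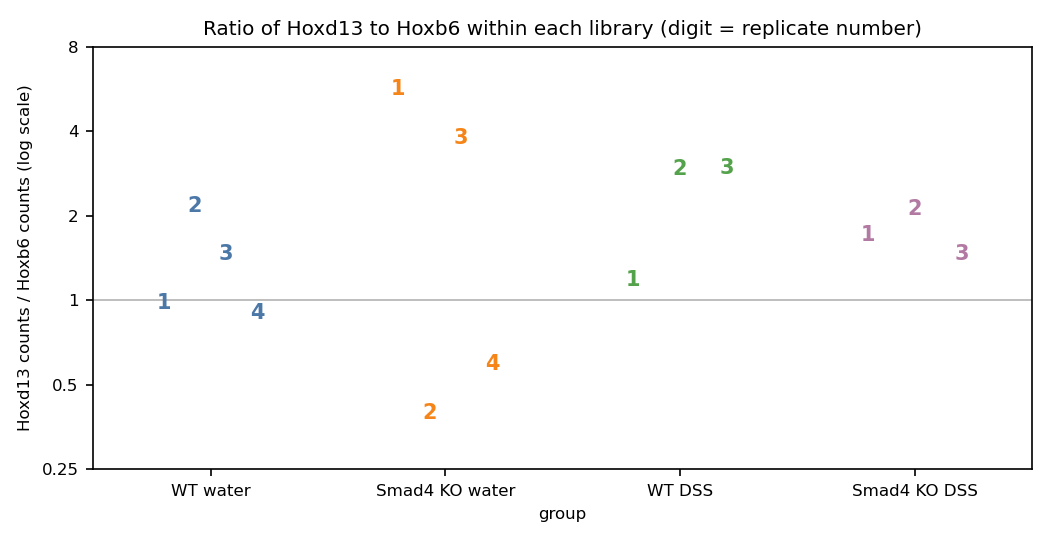
Ratio of Hoxd13 to Hoxb6 counts within each library (log axis), by group; each digit is the replicate number and the line marks equal counts. The 4 Smad4 KO libraries on water span 0.40 to 5.66 and hold the 2 highest and the 2 lowest ratios.

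Genes of known position along the gut were set beside the Hox genes. Osr2, taken as a proximal colon gene, had 1378, 597, 293 and 891 normalized counts in WT on water, 310.0, 446, 538 and 858 in Smad4 KO on water, 707, 348 and 397 in WT after DSS and 435, 639 and 558 in Smad4 KO after DSS. Osr2, the only 1 of the 3 listed proximal genes given here, was highest in WT water 1, WT water 4 and Smad4 KO water 4. These were also the 3 highest libraries for Hoxb6. Its r with Hoxb6 over the 14 libraries was 0.74 (Spearman's rho 0.68), and 0.54 without WT water 1 and Smad4 KO water 4. This r covers Osr2 alone and does not speak for the listed proximal genes as a set. Insl5, a hormone of distal enteroendocrine cells, had 999, 1356, 1086 and 1051 normalized counts in WT on water, 2093, 1012, 543 and 672 in Smad4 KO on water, 749, 1239 and 1085 in WT after DSS and 998, 472 and 612 in Smad4 KO after DSS. Its highest value was in the library labelled Smad4 KO water 1, which had the highest ratio of Hoxd13 to Hoxb6. In Smad4 KO water 2, which had the lowest ratio, Insl5 was 1012, near the middle of all libraries. Sprr2a2, a small proline-rich protein gene of a family of close copies and also listed as distal, had 7315, 10626, 6999 and 8890.3 normalized counts in WT on water, 1948, 1904, 3387 and 7621 in Smad4 KO on water, 3467, 2323 and 3953 in WT after DSS and 6296, 5223 and 3374 in Smad4 KO after DSS. It was high in all 4 WT libraries on water and in Smad4 KO water 4. Its value in the library labelled Smad4 KO water 1, where Insl5 was highest, was next to the lowest of the 14. Scnn1b, also listed as distal, had its 3 highest values in WT water 4 (263), Smad4 KO water 4 (212) and WT water 1 (201), where Osr2 was highest too. The remaining distal gene, Scnn1g, had at most 37.0 normalized counts.

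Of 7 small intestinal genes, 3 were tested. Fabp6, the bile acid binding protein of the ileum, ran from 84.7 in Smad4 KO water 2 to 849 in WT water 1, and Apoa4 was above 1 normalized count only in WT water 3 (75.0) and the library labelled Smad4 KO water 1 (21.1). Gata4 had at most 13.04 normalized counts, Lct was highest in WT water 3 (39.1), and the Paneth cell gene Defa24 was highest in WT water 1 (190.4). None of the 4 distal and 3 small intestinal genes that could be tested was called in any of the 5 comparisons, nor was Osr2. Whether the libraries held different lengths of proximal and distal colon was not tested.

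Smad4 KO was compared with WT on water to ask whether loss of Smad4 was accompanied by other Hox levels. Low p-values were those of Hoxa7 (log2 fold change -0.71 ± 0.27 SE, edgeR adjusted p = 0.092), Hoxa5 (log2 fold change -0.63 ± 0.25 SE, edgeR adjusted p = 0.11) and Hoxb4 (log2 fold change -1.04 ± 0.46 SE, edgeR adjusted p = 0.15), whose mean levels were lower in Smad4 KO, and Hoxd8 (log2 fold change 1.43 ± 0.58 SE, edgeR adjusted p = 0.11), whose mean level was higher. None of the 27 tested Hox genes was called by edgeR at an adjusted p of 0.05, against 8.44% of all 15127 genes tested. Of the 27, 5 had an unadjusted p under 0.05, these 4 among them, against 29.3% of all genes. DESeq2 on all libraries called Hoxa7 (adjusted p = 0.048) and Hoxd8 (adjusted p = 0.047), against 17.6% of all genes, and DESeq2 on the 8 libraries compared called none, against 5.47%. edgeR on those 8 libraries called none either, against 0.00686%.

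The median log2 fold change of the 27 Hox genes on water was -0.24, beside -0.0067 over all genes, with 5 genes higher and 22 lower. With total counts in place of TMM, which shifted the median of all genes to 0.22, the split was 12 higher and 15 lower. Among the posterior genes the log2 fold change was -0.37 ± 0.26 (SE, edgeR adjusted p = 0.37) for Hoxb13, -0.53 ± 0.32 (SE, edgeR adjusted p = 0.28) for Hoxd13 and -0.11 ± 0.20 (SE, edgeR adjusted p = 0.73) for Hoxa13. At an unadjusted p under 0.05, total counts gave 3 of 27, all higher, against 28.3% of all genes (23.0% higher and 5.28% lower). No Hox gene had groups that did not overlap, against 10.4% of all genes. Without the library labelled Smad4 KO water 1, edgeR called Hoxd8 alone (1.77, SE 0.50, edgeR adjusted p = 0.047), against 7.66% of all genes, and Hoxb13 stood at -0.72 (SE 0.22, edgeR adjusted p = 0.057). Without it 7 of 27 had an unadjusted p under 0.05, against 28.7% of all genes. Hoxd8 then lay wholly above WT and Hoxb13 wholly below it, and 11.1% of the Hox genes had groups that did not overlap, against 14.9% of all genes (7.25% above and 7.66% below).

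The library names carry letter prefixes whose meaning is not given in the sources used here. In prefix Z, Hoxd8 had 8.15 normalized counts in the WT library and 21.1 and 136 in the Smad4 KO libraries, and in prefix MP it had 34.3 and 164. Hoxa7 had 2448 in WT against 881 and 861 in Smad4 KO in prefix Z, and 1665 against 1109.8 in prefix MP. Mitochondrial shares were 30.6% in the WT library against 5.02% and 8.10% in prefix Z, and 32.8% against 21.4% in prefix MP. Their part in these differences was not tested, and the Hoxd8 value of 8.15 came from 5 counts. The values 21.1 and 881 came from the library labelled Smad4 KO water 1, whose Smad4 was within the WT range. With or without it, both genes kept their direction within these prefixes, but without it each prefix held 1 library per genotype. With the prefix as a term edgeR called both, Hoxa7 at -1.12 (adjusted p = 0.0052) and Hoxd8 at 2.69 (adjusted p = 0.041), against 13.3% of all genes. That fit was not run without the library labelled Smad4 KO water 1. Prefixes D and MS held libraries of 1 genotype on water. Hoxa7 was also called by edgeR without WT water 1, against 5.43% of all genes, and without WT water 2, against 9.43%, while without WT water 3 its log2 fold change was -0.33 (SE 0.21, edgeR adjusted p = 0.33). Without Smad4 KO water 4, edgeR called Hoxa5, Hoxa7, Hoxb4 and Hoxb6, against 27.3% of all genes. The library labelled Smad4 KO water 1 stayed in that fit and was the lowest of all for Hoxb4 (61.7) and Hoxb6 (284). Leaving it out of the full group moved the Smad4 KO mean on water from 177 to 216 for Hoxb4, beside 366 in WT. For Hoxb6 the mean moved from 835 to 1018, beside 1242 in WT.

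DSS was compared with water in WT to ask whether 3 d of injury went with other Hox levels. The middle Hoxb genes had lower means after DSS and Hoxa6 a higher one. The log2 fold change was -0.74 ± 0.20 (SE, edgeR adjusted p = 0.12) for Hoxb9 and 0.98 ± 0.31 (SE, edgeR adjusted p = 0.13) for Hoxa6. It was -1.56 ± 0.56 (SE, edgeR adjusted p = 0.15) for Hoxb5, -1.22 ± 0.49 (SE, edgeR adjusted p = 0.19) for Hoxb6 and -1.20 ± 0.51 (SE, edgeR adjusted p = 0.20) for Hoxb4. Hoxb8 (log2 fold change -1.03 ± 0.46 SE, edgeR adjusted p = 0.22) and Hoxa4 (log2 fold change -1.19 ± 0.45 SE, edgeR adjusted p = 0.17) also had an unadjusted p under 0.05. In group 13 it was -0.20 ± 0.28 (SE, edgeR adjusted p = 0.72) for Hoxb13, -0.46 ± 0.35 (SE, edgeR adjusted p = 0.45) for Hoxd13 and 0.30 ± 0.21 (SE, edgeR adjusted p = 0.43) for Hoxa13.

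None of the 27 genes was called by edgeR, and the background was 0.00% of all genes, none of the 15127. At an unadjusted p under 0.05 there were 7 of 27 Hox genes (1 higher and 6 lower), against 21.0% of all genes (10.7% higher and 10.3% lower). That split depended on the processing. Total counts gave 3 higher and 3 lower, against 16.2% and 3.72% of all genes (19.9% in all), and the name prefix as a term gave 5 higher and 3 lower, against 6.72% and 3.95% (10.7% in all). Within prefix D, described next, 6 of 26 were higher and 6 lower, against 9.97% and 7.30% (17.3% in all). DESeq2 on all libraries called Hoxb9 (adjusted p = 0.020) and Hoxa6 (adjusted p = 0.045), against 5.63% of all genes, and DESeq2 on the 7 libraries compared called Hoxa6, Hoxb4, Hoxb5, Hoxb6 and Hoxb9, against 12.4%. edgeR on those 7 libraries called none, against 0.00%. Without Smad4 KO water 4, which enters through the shared estimate of the spread, edgeR called Hoxb9, against 3.57% of all genes. Hoxa6 lay wholly above water and Hoxa4, Hoxb5, Hoxb6 and Hoxb9 wholly below it, 5 genes or 18.5%, against 24.4% of all genes (12.8% above and 11.6% below). The median log2 fold change of the Hox genes was -0.30, beside -0.014 over all genes, with 8 higher and 19 lower. With total counts, which put the median of all genes at 0.21, 13 were higher and 14 lower.

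Within prefix D, which held WT water 1 and 2 and WT DSS 1 and 2, both DSS libraries lay below both water libraries for Hoxb9, Hoxb5 and Hoxb6 and above them for Hoxa6. In an edgeR fit of the prefix D libraries, the log2 fold change was -0.63 for Hoxb9 (edgeR adjusted p = 0.15), -1.09 for Hoxb5 (edgeR adjusted p = 0.18), -1.13 for Hoxb6 (edgeR adjusted p = 0.11) and 0.74 for Hoxa6 (edgeR adjusted p = 0.15). Hoxa7 turned its direction, from -0.30 ± 0.29 (SE, edgeR adjusted p = 0.57) in all libraries to 0.53 (SE 0.11, edgeR adjusted p = 0.076) within prefix D, where WT water 3 and 4 with their high Hoxa7 and mitochondrial shares were absent.

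Smad4 KO was also compared with WT after DSS. The median log2 fold change of the 27 genes was 0.036, beside -0.00058 over all genes, with 14 higher and 13 lower. The log2 fold change was -0.42 ± 0.23 (SE, edgeR adjusted p = 0.999) for Hoxa13, -0.62 ± 0.29 (SE, edgeR adjusted p = 0.999) for Hoxa5 and -0.38 ± 0.28 (SE, edgeR adjusted p = 0.999) for Hoxa9. Hoxb13 stood at -0.23 ± 0.30 (SE, edgeR adjusted p = 0.999), Hoxb6 at 0.11 ± 0.52 (SE, edgeR adjusted p = 0.999) and Hoxb9 at 0.036 ± 0.21 (SE, edgeR adjusted p = 0.999). edgeR called none of the 27, against 0.0132% of all genes, and none had an unadjusted p under 0.05, against 4.43%. DESeq2 on all libraries called none, against 0.337%, and DESeq2 on the 6 libraries compared called Hoxa13 (adjusted p = 0.037), against 3.46%. edgeR on those 6 libraries called none, against 0.801%, and edgeR without the library labelled Smad4 KO water 1 called none, against 0.0531%. Hoxd4 lay wholly above WT and Hoxa9 and Hoxa13 wholly below it, 3 genes or 11.1%, against 21.8% of all genes (10.4% above and 11.4% below). Within prefix D, with WT DSS 1 and 2 and all 3 Smad4 KO libraries, Hoxa13 stood at -0.40 (SE 0.17, edgeR adjusted p = 0.38).

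In Smad4 KO, DSS against water gave no call among the 27 genes by edgeR, against 0.0661% of all genes, and no unadjusted p under 0.05, against 8.40%. DESeq2 called none either, against 0.463% with all libraries and 0.486% with the libraries compared. edgeR with the libraries compared called none, against 0.00694%, and edgeR without the library labelled Smad4 KO water 1 none, against 0.0332%. Without that library 3 of 27 had an unadjusted p under 0.05, Hoxa10 higher and Hoxb5 and Hoxb9 lower, against 8.83% of all genes. The log2 fold change was 0.39 ± 0.20 (SE, edgeR adjusted p = 0.64) for Hoxa10, -0.33 ± 0.20 (SE, edgeR adjusted p = 0.69) for Hoxb9 and -0.93 ± 0.55 (SE, edgeR adjusted p = 0.70) for Hoxb5. The Smad4 KO libraries shared no name prefix between water and DSS, so the prefix and the treatment cannot be told apart here. The groups overlapped for every Hox gene, against 8.88% of all genes that did not. Without the library labelled Smad4 KO water 1, Hoxa10 lay wholly above water and Hoxb8 wholly below it, 2 genes or 7.41%, against 13.7% of all genes (7.23% above and 6.49% below).

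Whether the DSS response differed between the genotypes was tested with the difference of the 2 responses. On the log2 scale the difference was 0.40 ± 0.28 (SE, edgeR adjusted p = 0.71) for Hoxb9, -0.58 ± 0.45 (SE, edgeR adjusted p = 0.73) for Hoxa6 and 0.64 ± 0.76 (SE, edgeR adjusted p = 0.83) for Hoxb5. Neither edgeR nor DESeq2 on all libraries called a Hox gene, against 0.00661% and 0.0529% of all genes, nor did edgeR without the library labelled Smad4 KO water 1, against 0.00663%. None had an unadjusted p under 0.05 in edgeR, against 7.50%. The lower Hoxb9 and higher Hoxa6 means after DSS in WT were thus not shown to differ from those in Smad4 KO.

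**Figure D5:**
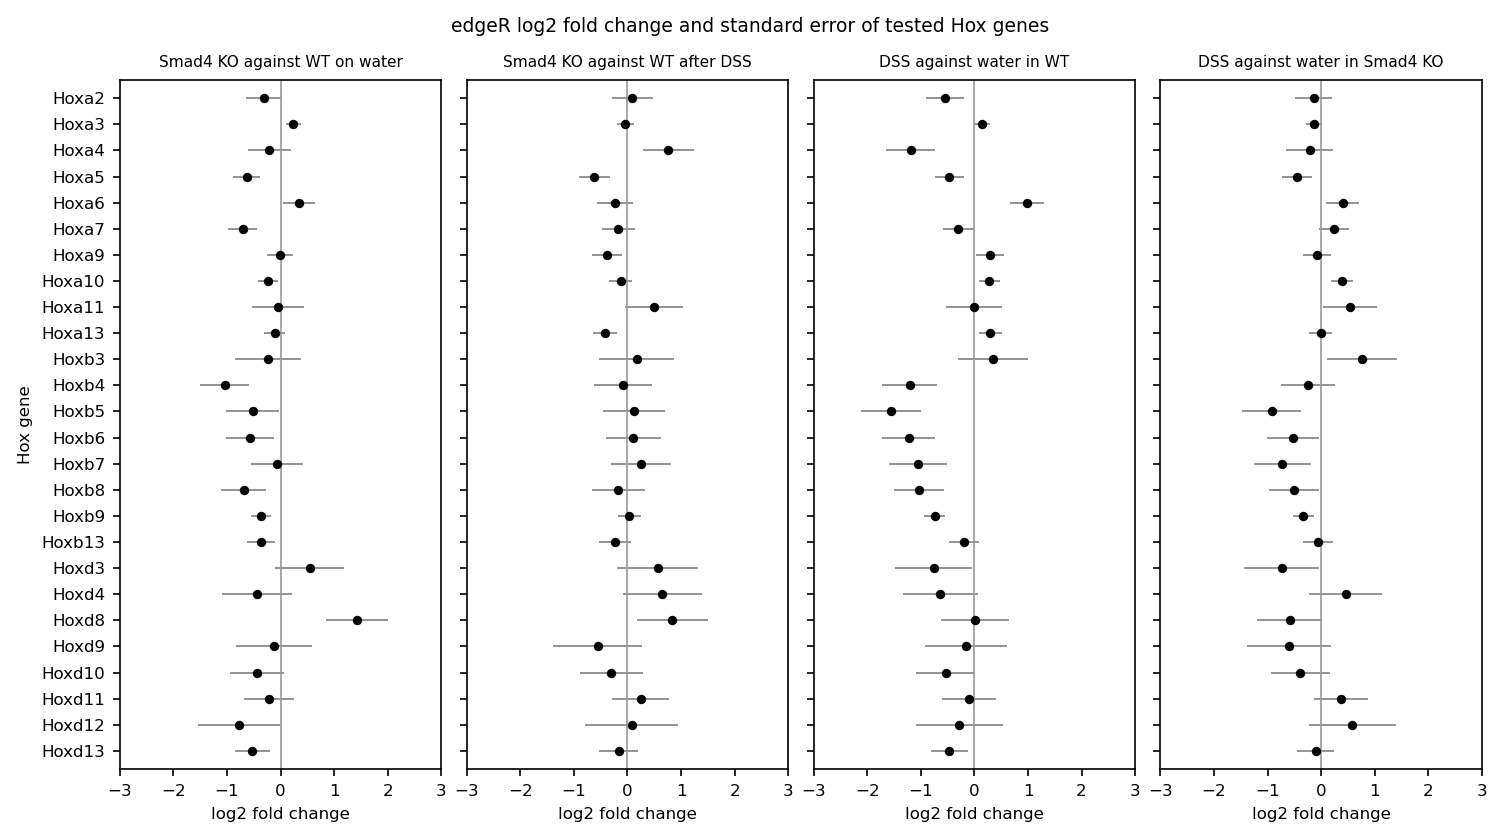
Log2 fold change (points) and standard error (bars) of tested Hox genes in 4 comparisons, from the edgeR fit of all 14 libraries. The Hoxb4 to Hoxb9 points lie below 0 for DSS against water in WT and in Smad4 KO, and for Smad4 KO against WT on water. They lie on either side of 0 for Smad4 KO against WT after DSS. No gene reached an adjusted p of 0.05 in any of the 4 comparisons.

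The cofactors and regulators of Hox genes were given from lists. Of 9 TALE homeobox genes, whose Meis, Pbx and Pknox proteins bind DNA with Hox proteins, 5 were tested and none was called in any comparison. Meis3, the only one of Meis1 to Meis3 above 10 normalized counts, had 196, 225, 223 and 392 normalized counts in WT on water, 105, 53.7, 86.5 and 317 in Smad4 KO on water, 193, 182 and 128 in WT after DSS and 96.3, 131 and 142 in Smad4 KO after DSS, with WT water 4 and Smad4 KO water 4 highest and Smad4 KO water 2 lowest. Meis1 and Meis2 had at most 5.91 normalized counts. Of the caudal genes, which switch on Hox genes in the embryo, Cdx1 and Cdx2 were tested and neither was called in any comparison. On water the log2 fold change was -0.45 ± 0.15 (SE, edgeR adjusted p = 0.061) for Cdx1 and -0.48 ± 0.16 (SE, edgeR adjusted p = 0.060) for Cdx2, and without the library labelled Smad4 KO water 1 -0.48 ± 0.17 (SE, edgeR adjusted p = 0.078) and -0.48 ± 0.18 (SE, edgeR adjusted p = 0.094).

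Of 22 Polycomb and Trithorax genes, whose products keep Hox genes off or on, 21 were matched and tested. On water 2 were called higher in Smad4 KO and none lower, Bmi1 (log2 fold change 0.76 ± 0.17 SE, edgeR adjusted p = 0.024) and Phc3 (log2 fold change 0.53 ± 0.12 SE, edgeR adjusted p = 0.025), both subunits of Polycomb repressive complex 1. The 21 genes went in both directions, from -0.75 for Pcgf2 to 0.76 for Bmi1, with a median of -0.021. The calls are 2 of 21, against 8.44% of all genes, and none was called in the other 4 comparisons. Without the library labelled Smad4 KO water 1, Bmi1 stood at 0.84 ± 0.17 (SE, edgeR adjusted p = 0.016) and Phc3 at 0.56 ± 0.13 (SE, edgeR adjusted p = 0.022), and Men1, a subunit of Trithorax-type complexes, was called too, at -0.47 ± 0.14 (SE, edgeR adjusted p = 0.0498). In that fit 7.66% of all genes were called. Evx1, which lies beyond Hoxa13, had 37.0, 55.0, 83.1 and 62.1 normalized counts in WT on water, 70.5, 29.8, 51.1 and 19.3 in Smad4 KO on water, 92.0, 138 and 98.6 in WT after DSS and 67.0, 89.7 and 54.9 in Smad4 KO after DSS. Its r with Hoxa13 over the 14 libraries was 0.73, and 0.70 without WT water 3 and WT DSS 2. Evx2, beyond Hoxd13, had an r of 0.43 with Hoxd13. Gm53, a gene between Hoxb13 and Hoxb9, had 669 to 1829 counts.

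The genes outside the clusters whose log2 CPM were most like those of Hoxb13 over the 14 libraries were Bnipl (r = 0.90), Kcnk3 (0.89), Repin1 (0.89), B3gnt7 (0.88), Ckmt1 (0.88), Ap3s1-ps2 (0.86), D10Jhu81e (0.85), Chmp1a (0.85), Slc24a6 (0.85) and Dusp23 (0.85). Without WT water 2 and Smad4 KO water 2, the highest and the lowest library for Hoxb13, r was 0.86 for Repin1, 0.85 for B3gnt7 and 0.64 to 0.77 for the other 8.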

How the data were processed

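Messenger RNA of colon epithelium was sequenced paired-end in 14 libraries from 4 groups. The deposited values are raw counts per gene, which the authors made by aligning the reads to mm9 with HISAT2 and counting them with featureCounts; the strand setting is not given in the sources used here. Gene names came from GENCODE M1, on the build of the counts.

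The 15127 genes that reached 10 counts in 3 or more libraries were fitted in edgeR 4.0.16 (R 4.3.3) as 1 quasi-likelihood model of the 4 groups with TMM scaling, and p-values were adjusted by the Benjamini-Hochberg method over all genes with a threshold of 0.05. Normalized counts are counts divided by the TMM library size and multiplied by the mean of these sizes. Correlations used log2 CPM with a prior count of 2. The script was tested on simulated data. DESeq2 1.42.0, which the study applied to pairs of groups, was run on all libraries and on the groups compared as an alternative, with other scalings, filters, blocks and left-out libraries. Totals ran from 12882827 to 26087231 counts, and intervals of counting error do not include the spread between libraries.

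The Hox genes and lists were chosen with earlier results of these data known. Hox genes with a mean of at least 50 normalized counts, called in a comparison, or of paralog groups 12 and 13 were to be given per library, the others by their range. The genes most like Hoxb13 were the 10 with the highest Pearson's r. Of the regulator and region lists, Kmt2a was matched as Mll1, and Kmt2d and 1 distal gene were not analysed here. Results of some genes that the counts include are not reported here.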

Additional observations from a re-analysis of the deposited data

How the results depend on the processing

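Replicate numbers did not pair the libraries, with correlations of deviations from -0.081 to 0.0561 except for number 4 on water (0.348). With a replicate block edgeR called 0 Hox genes in each of the 5 comparisons, and 2977 genes on water and 6 for DSS in Smad4 KO. On water, 0 Hox genes and 1276 genes were called. DESeq2 on all libraries called 2 and 2659, and the name prefix block 2 and 2018. Over left-out single libraries the calls ran from 0 to 4 Hox genes and from 4 (without WT water 4) to 4104 genes (without Smad4 KO water 4). Over all genes, edgeR on the groups compared called 1, DESeq2 on them 796, edgeR on them without the library labelled Smad4 KO water 1 called 13, total counts 814, and edgeR without the libraries labelled Smad4 KO water 1 and 2, an alternative chosen after seeing the data, 142.

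For Smad4 KO against WT after DSS (0 Hox genes, 2 genes), DESeq2 on the groups compared called 1 Hox gene and 492 genes, DESeq2 on all libraries 51 genes, edgeR on the groups compared 114, no count filter 7, the prefix block 1, prefix D alone 20, without both labelled libraries 10, and left-out libraries 0 to 8. For DSS in WT (0 and 0), DESeq2 called 2 Hox genes and 851 genes on all libraries and 5 and 1789 on the groups compared. There, no filter gave 138 genes, the prefix block 2, prefix D 40, and left-out libraries 0 to 1 Hox genes and 0 to 537 genes. For DSS in Smad4 KO (0 and 10), DESeq2 gave 70 genes in both fits, edgeR on the groups compared 1 with and 1 without the library labelled Smad4 KO water 1, total counts 4, the prefix block 1, without both labelled libraries 5, and left-out libraries 3 to 11. For the difference of responses (0 and 1), DESeq2 gave 8, no filter 2, and left-out libraries 1 to 6. The causes were not tested. The log2 fold changes of the Hox genes with an unadjusted p under 0.05, and those of Hoxb13 and Hoxd13 on water and of Hoxa13 after DSS, kept their direction under their 25 alternatives each, with 356 values on the same side of the threshold and 19 past it only under the alternative. Most of these genes were picked by their p, and the alternatives reuse the same libraries, so a kept direction was likely beforehand. Hoxa7 for DSS in WT, which turned its direction within prefix D, was not among them. Depth limits Hoxc and genes such as Hoxd12 most, since a count of 3 is the lower limit of detection used.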
